A study of Mus musculus with 6 samples.

Results

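Of 10 chosen genes of the HSP40, HSP70, HSP90 and HSP60 chaperone families, 4 were measured, none of them an HSP90 gene. The signal of the detected probe for Dnaja2, an HSP40 co-chaperone, was 2.47-fold lower in vastus lateralis muscle overexpressing FRG1 than in wild type muscle. The other 3 measured members, Dnajb1, Hsph1 and Hspd1, did not pass the test. This 1 call among 4 genes stands beside 14.8% of all genes called in either direction. Genes of these families outside the 10 were followed in separate lists, and some of them were called too. The members were 10 genes taken by symbol: the HSP40 genes Dnaja1, Dnaja2 and Dnajb1, the HSP70 genes Hspa1a, Hspa1b, Hspa8 and the related Hsph1, the HSP90 genes Hsp90aa1 and Hsp90ab1, and Hspd1, which encodes the mitochondrial chaperonin HSP60. The platform's annotation gave 13 probes to 7 of the 10. Of these, 5 probes, standing for 4 genes, had a detection p under 0.05 on at least 3 of the 6 arrays and were tested, out of 19563 such probes and 10287 such genes in all.

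RNA came from the vastus lateralis, a muscle of the quadriceps, of 6 C57Bl/6J female mice aged 4 weeks and was measured on 1 Illumina bead array per sample. The labels put 3 samples in the wild type group (Sample872, Sample906 and Sample923) and 3 in the group overexpressing FRG1 (Sample871, Sample873 and Sample874), called FRG1 below. FRG1, FSHD region gene 1, is named for the region linked to facioscapulohumeral muscular dystrophy. The labels name neither the promoter that drives FRG1 nor the species of its sequence, and they do not say how the animals were bred, so the p-values measure the spread between these samples.

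HSP70 proteins hold unfolded stretches of other proteins in a cycle driven by ATP. HSP40 proteins carry a J domain that delivers substrates to HSP70 and speeds its ATP hydrolysis, and exchange factors such as the HSP110 protein made from Hsph1 release the nucleotide again. HSP90 takes over partly folded clients, among them kinases and steroid receptors, and in skeletal muscle it folds myosin with the co-chaperone UNC45. HSP60 with its partner HSP10, the product of Hspe1, forms a folding chamber in the mitochondrial matrix. After heat or proteotoxic stress the factor HSF1 raises the transcription of the inducible members, of which Hspa1a, Hspa1b, Dnajb1 and Hsph1 are well known examples.

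The single Frg1 probe was detected on 0 of the 6 arrays, and no check of the genotype can be drawn from it. Total signal per array ran from 10537335 to 13062182 intensity units, and 17957 to 20000 probes were detected. On the second principal component of the retained probes wild type Sample923 scored -27.8, against 21.2 for Sample906 and 14.9 for Sample872, and Dnaja2 had a log2 fold change of -1.31 both with and without Sample923. All 13 measured genes of the skeletal muscle list were detected on all 6 arrays, and 3 of them were lower in FRG1 (Ryr1, Actn3 and Myh4). None was called higher, 7 of the 13 had a positive log2 fold change, and the median was 0.01. Their summed level was 246200 to 267500 units in wild type and 236100 to 253300 in FRG1, which overlap. Macrophage markers were higher in 11 of 13 cases and lower in 0, with a summed level of 2686 to 3048 units in wild type and 4434 to 5415 in FRG1. Of 15 endothelial markers 3 were lower (summed level 11410 to 13030 against 8489 to 10040), and of 8 tendon markers 6 were lower (16250 to 19490 against 14000 to 16600). Of 12 smooth muscle and pericyte markers 4 were lower, and fibroblast markers split with 1 of 10 higher and 1 lower. Beside these counts, 7.53% of all genes were called higher and 7.23% lower. The 2 measured neutrophil markers did not pass in limma (1 at an unadjusted p under 0.05), and their summed level lay between 54.9 and 67.5 units in wild type and between 94.0 and 1842 in FRG1. Among immediate early genes, which respond to handling, 2 of 9 were higher (Fos and Atf3). All 9 had a positive log2 fold change, with a median of 0.44. Their summed level was 3568 to 5227 units in wild type and 5693 to 6292 in FRG1, which do not overlap. These summed levels are sums of normalized linear intensities. The part of these shifts in the chaperone values was not tested, and in bulk muscle fewer cells of a type and less RNA per cell cannot be told apart.

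Signal was unevenly spread over the 13 member probes, as the plot of raw signals shows. The 5 retained probes, 1 each for Dnaja2, Dnajb1 and Hsph1 and 2 for Hspd1, were detected on all 6 arrays. The other 8 probes were detected on 0 arrays (5 probes) or on 1 array (3 probes). None of the 3 Dnaja1 probes, the 2 Hspa1a probes or the 2 Hsp90aa1 probes was retained. The mean raw signals of these probes lay between 36.4 and 52.4 intensity units in either group.

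The single detections were all in the FRG1 group. The Dnaja1 probe ILMN_2768650 had a detection p of 0.0387 on Sample873, and the Hspa1a probe ILMN_1245039 one of 0.0318 on Sample874. The second Dnaja2 probe, ILMN_2687961, had a detection p of 0.0387 on Sample873 and was not above background on the other 5 arrays. No fold is given for these 8 probes, since both groups were below background or the bound came out under 1. Low signal on a bead array can come from the probe as well as from the transcript, and the levels of Dnaja1, Hspa1a and Hsp90aa1 in this muscle are not read from it. Hspa1b, Hspa8 and Hsp90ab1 have no probe in the annotation used and were not analysed here.

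**Figure D1:**
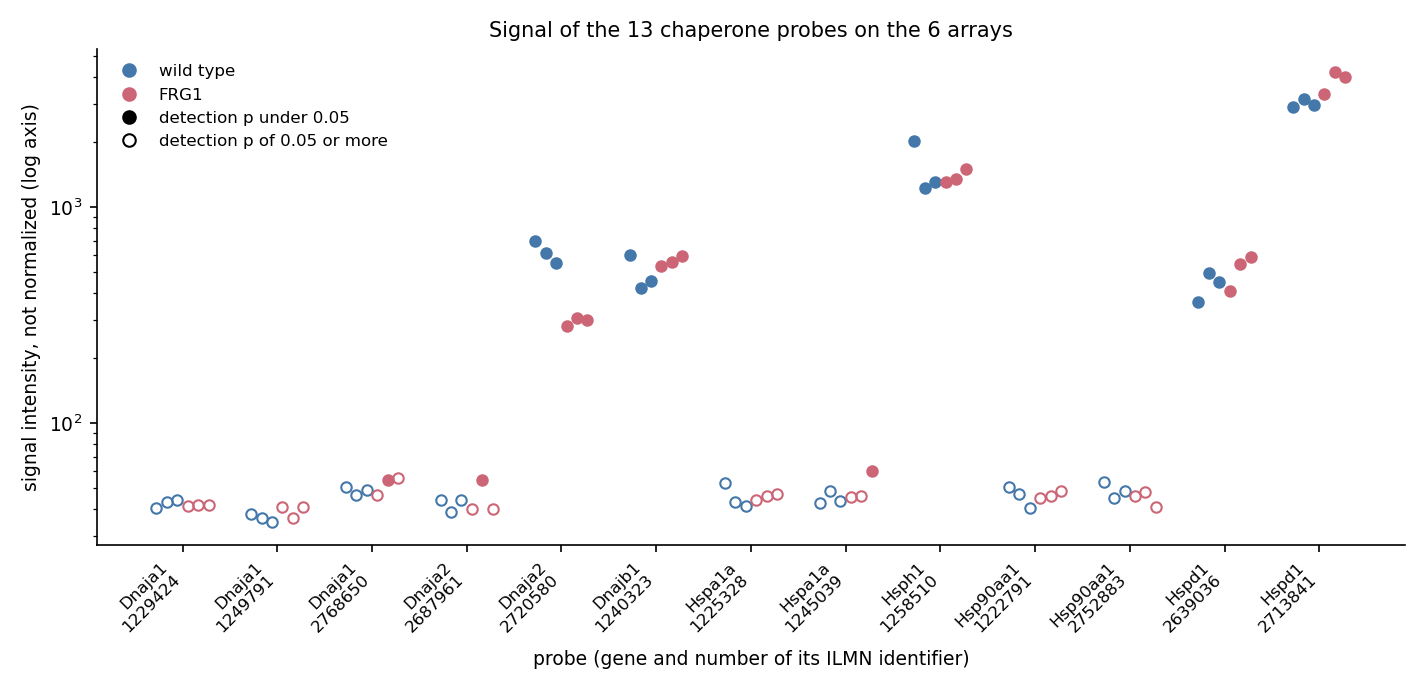
Signal intensity before normalization (log axis) of the 13 probes annotated to the chaperone genes on each of the 6 arrays, blue for wild type and red for FRG1, filled where the detection p was under 0.05. The probes of Dnaja2 (ILMN_2720580), Dnajb1, Hsph1 and Hspd1 stand above the rest, and only for Dnaja2 do all 3 FRG1 points lie below all 3 wild type points.

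A promoter of each of the 4 measured members is shown. HSF1 binds inverted repeats of the unit GAA. A window of 250 bases before to 50 bases after the start was searched on both strands for the 2-unit element (GAANNTTC or TTCNNGAA) and for the 3-unit element (GAANNTTCNNGAA or TTCNNGAANNTTC), which contains 2 overlapping 2-unit elements. RefSeq windows of build GRCm38.p6 were at hand for 7 of the 10 members, 12 windows in all. Each sequence below runs 5′ to 3′ on the strand of the gene, and capitals mark matched elements. The Dnaja2 window (chr8:85555312-85555611, minus strand) is that of the member that fell. The first Dnajb1 window (chr8:83607925-83608224, plus strand), the second Hsph1 window (chr5:149636266-149636565, minus strand) and the second Hspd1 window (chr1:55087883-55088182, minus strand) belong to members that did not pass.
Dnaja2: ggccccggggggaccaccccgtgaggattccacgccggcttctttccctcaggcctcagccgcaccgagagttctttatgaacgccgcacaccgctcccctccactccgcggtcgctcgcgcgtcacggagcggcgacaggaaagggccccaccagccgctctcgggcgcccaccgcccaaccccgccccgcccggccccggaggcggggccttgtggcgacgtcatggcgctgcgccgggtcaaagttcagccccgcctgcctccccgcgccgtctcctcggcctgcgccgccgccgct
Dnajb1: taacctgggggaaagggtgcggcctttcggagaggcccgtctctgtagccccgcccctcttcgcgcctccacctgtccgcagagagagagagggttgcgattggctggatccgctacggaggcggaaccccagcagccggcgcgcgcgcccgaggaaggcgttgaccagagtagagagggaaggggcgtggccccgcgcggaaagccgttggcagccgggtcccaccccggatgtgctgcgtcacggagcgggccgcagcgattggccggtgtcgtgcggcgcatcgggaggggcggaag
Hsph1: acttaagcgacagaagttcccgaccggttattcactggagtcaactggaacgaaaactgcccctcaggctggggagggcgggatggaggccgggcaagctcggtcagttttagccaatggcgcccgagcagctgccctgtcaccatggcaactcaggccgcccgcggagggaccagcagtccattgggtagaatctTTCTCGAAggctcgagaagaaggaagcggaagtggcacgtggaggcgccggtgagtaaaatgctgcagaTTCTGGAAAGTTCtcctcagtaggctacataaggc
Hspd1: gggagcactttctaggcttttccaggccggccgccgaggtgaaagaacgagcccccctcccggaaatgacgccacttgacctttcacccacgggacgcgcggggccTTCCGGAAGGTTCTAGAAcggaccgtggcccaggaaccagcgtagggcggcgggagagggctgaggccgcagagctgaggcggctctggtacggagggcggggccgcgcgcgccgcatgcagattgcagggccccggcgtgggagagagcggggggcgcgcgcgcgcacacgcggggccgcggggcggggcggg

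The 3-unit element was found in 198 of 32851 windows of all genes (0.603%) and the 2-unit element in 4946 (15.1%). The Dnaja2 window held neither, and nor did either Dnajb1 window. A link between these elements and the calls was not tested. The Hspd1 window held 2 overlapping 3-unit elements in 1 run, from 144 to 127 bases before the start. The Hsph1 window held a 2-unit element from 54 to 47 bases before the start and a 3-unit element in the bases after it. The other Hspd1 window held neither element, and 1 of the 3 Dnaja1 windows held a 2-unit element. Hspa1a and Hspa1b, whose windows are identical at 296 of 300 bases, each had a single 2-unit element from 104 to 97 bases before the start. A match describes the letters and not binding, and the absence of one says only that these letters are not in the window. Hspd1 and Hspe1 lie on opposite strands, and the second Hspd1 window shares 285 bases with that of Hspe1, so the 2 genes share this element. Hspe1 has no probe in the annotation used.

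Dnaja2 encodes a J-domain protein of the cytosol that works with HSC70, the constitutive HSP70 made from Hspa8. The normalized log2 intensity of its probe ILMN_2720580 was 9.27, 9.34 and 9.28 in wild type Sample872, Sample906 and Sample923, and 8.05, 7.97 and 7.96 in FRG1 Sample871, Sample873 and Sample874. All 3 FRG1 samples were low and close together, and the groups were separated by a gap of 1.22 log2 units. The means were 9.30 ± 0.04 and 7.99 ± 0.05 (SD, n = 3 each), a log2 fold change of -1.31 ± 0.11 (SE; 95% interval -1.55 to -1.06; limma adjusted p = 0.000111). Before normalization the signal was 696, 617 and 552 units in the wild type samples and 283, 307 and 302 in the FRG1 samples, in the same order, so the separation was present in the deposited values. By log2 fold change Dnaja2 stood at place 13 among the 744 genes lower in FRG1. Its call rests on 1 of its 2 probes, since the second was below background. Where either probe lies on the transcripts of the gene was not analysed here, so the value describes what this probe binds and may not cover every transcript of Dnaja2.

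Dnaja2 was the only one of the 5 retained member probes past the threshold (1 lower and 0 higher), against 13.8% of all retained probes called in either direction, 6.71% called lower and 7.1% called higher. At an unadjusted p under 0.05 it was also the only member probe. With 5 probes, 1 call is near that background share. By gene it was 1 of 4, against 14.8% of all genes. The groups did not overlap in 2 of the 5 probes, against 33.7% of all retained probes. Hspd1 ILMN_2713841 was the other, with a gap of 0.05.

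**Figure D2:**
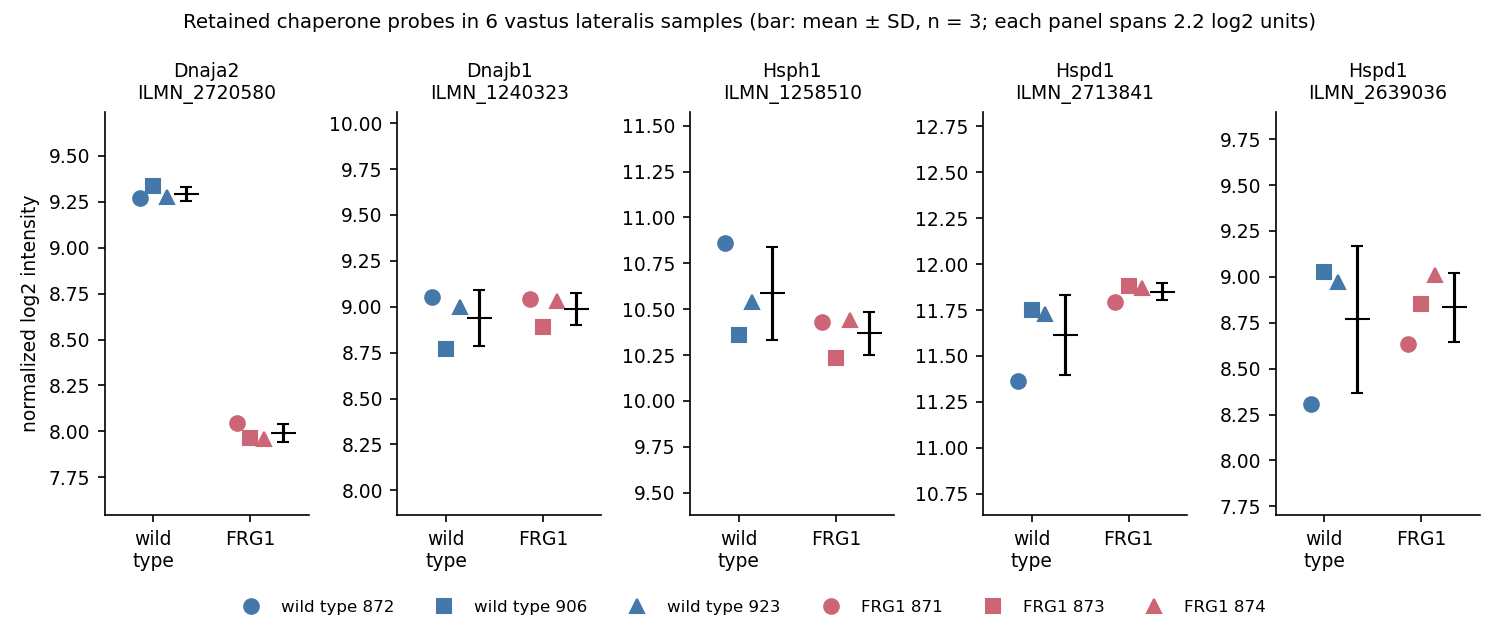
Normalized log2 intensity of the 5 retained probes in each sample, with the mean ± SD of each group (n = 3) beside the points, and a span of 2.2 log2 units in every panel. Dnaja2 falls from a mean of 9.30 to 7.99 with no overlap, while the groups of Dnajb1, Hsph1 and Hspd1 overlap or are 0.05 apart, and wild type Sample872 stands apart from the other wild type samples for Hsph1 and Hspd1.

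Dnajb1, the main stress-inducible HSP40 of the cytosol, had log2 values of 9.05, 8.77 and 8.998 in wild type Sample872, Sample906 and Sample923 and of 9.04, 8.89 and 9.03 in FRG1 Sample871, Sample873 and Sample874. The FRG1 values lay within the wild type range. The log2 fold change was 0.05 ± 0.13 (SE; 95% interval -0.23 to 0.33; limma adjusted p = 0.843).

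The log2 value of Dnaja2 minus that of Dnajb1 was taken within each array. A constant added to all log2 values of an array does not change this difference, whereas background correction and offset do. It was 0.22, 0.57 and 0.28 in the wild type samples and -0.997, -0.92 and -1.08 in the FRG1 samples. Every FRG1 difference lay below every wild type difference. The group difference was -1.35, and the two-sided exact permutation p was 0.1, the smallest that 3 against 3 allows. This pair was chosen after the values were seen, and its separation restates the fall of Dnaja2. It was added because none of the 5 pairs planned had both members measured.

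Hsph1 encodes HSP110, a relative of HSP70 that acts as its nucleotide exchange factor and holds unfolded proteins. Its log2 values were 10.86, 10.36 and 10.54 in wild type Sample872, Sample906 and Sample923 and 10.43, 10.23 and 10.44 in FRG1 Sample871, Sample873 and Sample874. The groups overlapped and wild type Sample872 was the highest. The log2 fold change of -0.22 ± 0.15 (SE; 95% interval -0.55 to 0.12) did not pass (limma adjusted p = 0.386), and it was -0.08 without wild type Sample872.

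Hspd1 encodes HSP60. Its brighter probe, ILMN_2713841, had log2 values of 11.36, 11.75 and 11.73 in wild type Sample872, Sample906 and Sample923 and of 11.80, 11.88 and 11.87 in FRG1 Sample871, Sample873 and Sample874. The log2 fold change was 0.24 ± 0.14 (SE; 95% interval -0.07 to 0.54; limma adjusted p = 0.297), and it was 0.11 without wild type Sample872. The dimmer probe, ILMN_2639036, had log2 values of 8.31, 9.03 and 8.97 in wild type and 8.64, 8.85 and 9.01 in FRG1, in the same order. Its groups overlapped, with a log2 fold change of 0.06 ± 0.20 (SE; 95% interval -0.37 to 0.50; limma adjusted p = 0.868) that turned to -0.16 without wild type Sample872. Both probes were lowest in wild type Sample872, the sample in which Hsph1 was highest.

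**Figure D3:**
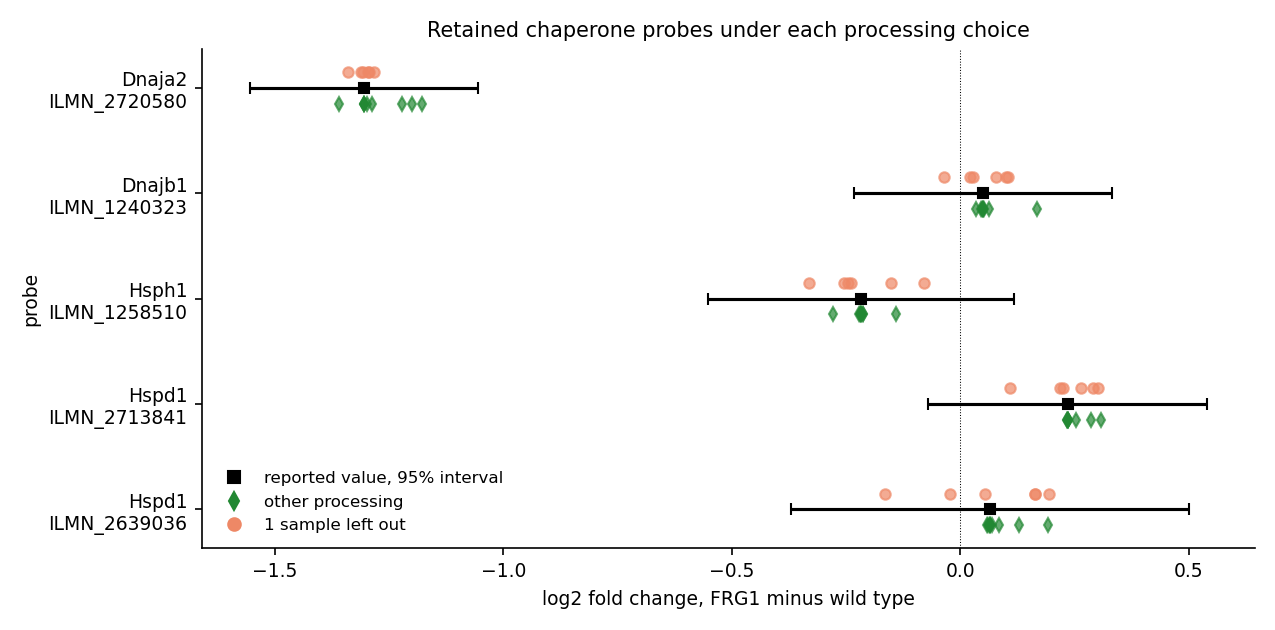
Log2 fold change (FRG1 minus wild type) of the 5 retained probes: black squares with 95% intervals are the reported values, green diamonds other processing choices and orange circles fits with 1 sample left out. Dnaja2 lies between -1.36 and -1.18 under every choice, whereas the intervals of Dnajb1, Hsph1 and both Hspd1 probes span 0.

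The genes nearest to Dnaja2 in pattern, by the Euclidean distance between log2 values centred on each gene's mean over the 6 samples, were Nudt11 (distance 0.21), G3bp1 (0.27) and Prima1 (0.27), out of 10286 genes compared. Nudt11, a phosphohydrolase of inositol pyrophosphates, fell by 1.30 on the log2 scale (limma adjusted p = 0.000145). G3bp1, an RNA-binding protein of stress granules, fell by 1.14 (adjusted p = 0.000267). Prima1, the membrane anchor of acetylcholinesterase, fell by 1.22 (adjusted p = 0.000393), with 2 of its 3 FRG1 arrays above background. In each of the 3, as in Dnaja2, no FRG1 sample reached the level of a wild type sample. The distance describes 6 arrays in 2 groups and therefore finds genes with the same size and direction of group difference.

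**Figure D4:**
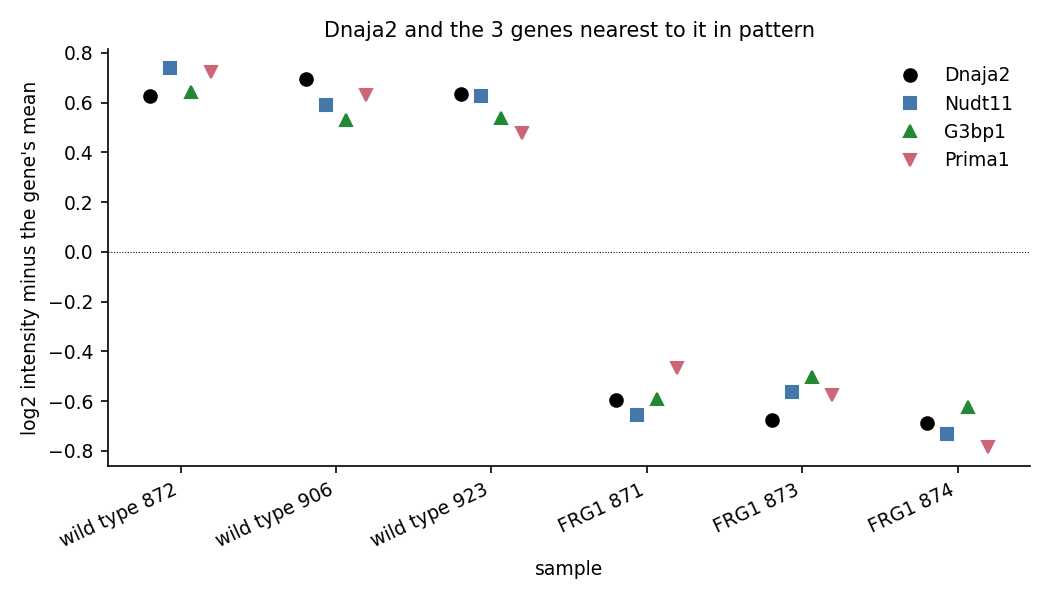
Log2 intensity minus the gene's mean over the 6 samples for Dnaja2 and the 3 genes nearest to it, Nudt11, G3bp1 and Prima1. In all 4 the wild type samples lie above 0 and the FRG1 samples below it.

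The wider chaperone network was followed through 9 lists with 127 genes, of which 111 were measured. Of these, 9 were higher and 6 lower in FRG1 (limma, adjusted over all retained probes), or 13.5% in either direction against 14.8% of all genes, 7.53% being called higher and 7.23% lower. Their median log2 fold change was -0.02, and that of all genes -0.03. Without FRG1 Sample871 the counts were 3 higher and 2 lower, and without FRG1 Sample873 they were 2 higher and 3 lower. With median scaling 11 were higher and 2 lower.

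Among 35 other measured HSP40 genes 3 were lower and 1 was higher, with a median of 0.01. Dnajb6 was counted as not passed by its brightest probe (0.22, limma adjusted p = 0.461). Of its 3 retained probes 2 did not pass and the remaining probe passed as higher, with values from 0.22 to 0.72. Dnajb9, an HSP40 of the endoplasmic reticulum lumen, fell by 0.67 (log2 7.93 ± 0.03 in wild type and 7.26 ± 0.18 in FRG1, SD, n = 3 each; limma adjusted p = 0.00827), a call lost with median scaling. Dnajc27, a small GTPase with a J domain, fell by 0.91 (adjusted p = 0.0137), and Dnajb12, an HSP40 of the endoplasmic reticulum membrane, fell by 0.67 (adjusted p = 0.0165). For each, 1 of 2 retained probes passed. Both calls were lost without Sample871 or Sample873, with no detection filter and with the authors' processed table, that of Dnajb12 also with median scaling. Dnajc5, the cysteine string protein of synaptic vesicles, rose by 0.80 (adjusted p = 0.0222), but 1 of its 3 retained probes passed and another had a log2 fold change of -0.27. With its probes averaged the value was 0.28 (adjusted p = 0.145), and the call was also lost without any 1 of the FRG1 samples, with no detection filter and with the authors' processed table.

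Among 9 other HSP70 genes 2 were higher and 0 lower, with a median of -0.09 that was 0.06 with median scaling. Hspa4, a member of the HSP110 group like Hsph1, rose by 0.62 ± 0.14 (SE; limma adjusted p = 0.0166), and Hspa2, an HSP70 best known from testis, rose by 0.49 ± 0.13 (adjusted p = 0.0317). Both calls were lost without FRG1 Sample871, without FRG1 Sample873 and without wild type Sample906, and that of Hspa2 also without wild type Sample872. The next by p were Hspa12a and Hspa12b, distant relatives of HSP70, at -0.44 and -0.38 (adjusted p = 0.0692 and 0.106). The 2 HSP90 genes of other compartments did not pass, with the mitochondrial Trap1 at -0.37 ± 0.12 (adjusted p = 0.0732) and Hsp90b1, the HSP90 of the endoplasmic reticulum, at 0.03 ± 0.14 (adjusted p = 0.905).

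None of 12 measured HSP70 co-chaperones passed in limma, and 3 had an unadjusted p under 0.05. St13, which binds HSP70 and HSP90, had the smallest adjusted p (0.102) at 0.34 ± 0.12, followed by Tomm34 at 0.30, Bag6 at -0.32 and the ubiquitin ligase Stub1 at 0.28. Of 22 HSP90 co-chaperones 1 was higher and 3 were lower, with a median of -0.08. Tomm70a, the mitochondrial import receptor that docks HSP70 and HSP90, had log2 values of 8.34, 8.62 and 8.59 in wild type and 7.55, 7.61 and 7.60 in FRG1, in ascending order of sample number. No FRG1 sample reached the wild type range, and it fell by 0.94 (limma adjusted p = 0.00115), with 1 of 2 retained probes past the threshold and the other at -0.36. Fkbp8, an immunophilin of the mitochondrial outer membrane, fell by 0.56 (adjusted p = 0.0109), a call lost with median scaling and without Sample871. Ptges3, the HSP90 co-chaperone p23, fell by 0.42 (adjusted p = 0.0352), a call lost under 7 of 16 alternatives. Unc45a, the UNC45 protein found in many tissues, rose by 0.47 (adjusted p = 0.0264), a call lost under 5 of 16 alternatives. For Unc45a 1 of 2 retained probes passed the threshold, with the other at 0.36. The other UNC45 gene, Unc45b, was not among the 22 measured genes of this list.

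Of the heat shock factor list 3 genes were measured and 1 passed. Hsf2 rose by 0.84 ± 0.21 (SE; limma adjusted p = 0.0242), with 1 of its 2 retained probes past the threshold. With its probes averaged the value was 0.54 (adjusted p = 0.0553), and the call was also lost without any 1 of the FRG1 samples, with no detection filter and with the authors' processed table. Hsf4 stood at 0.50 ± 0.17 (adjusted p = 0.0839) and was above background on 1 of 3 wild type arrays, and Hsbp1, which binds heat shock factors, at 0.07 ± 0.12 (adjusted p = 0.741). Hsf1 has no probe in the annotation used.

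None of the 10 mitochondrial chaperones and proteases and none of the 14 genes of the CCT chaperonin and prefoldin passed in limma, with 1 in each list at an unadjusted p under 0.05. Their smallest adjusted p-values were 0.0732 (Trap1) and 0.168 (Pfdn4), and their medians were -0.12 (0.03 with median scaling) and 0.03. Grpel2, Clpp and Yme1l1 followed Trap1, at -0.21, 0.18 and -0.21. Cct8, Cct6a and Tcp1 followed Pfdn4, at 0.24, 0.28 and 0.22, with Pfdn4 itself at 0.26.

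The small heat shock proteins, which hold unfolded proteins without ATP, were measured with Bag3 as 8 genes, of which 4 were higher and 0 lower, with a median log2 fold change of 0.43. Hspb1 had log2 values of 12.66, 12.27 and 12.27 in wild type and 13.49, 13.56 and 13.41 in FRG1, in ascending order of sample number, and rose by 1.09 ± 0.14 (SE; limma adjusted p = 0.001). Hspb8, which works with Bag3 and HSP70, rose by 0.90 ± 0.13 (adjusted p = 0.00219). Hspb3 rose by 0.64 ± 0.14 (adjusted p = 0.0132, lost without Sample873) and Cryab by 0.47 ± 0.13 (adjusted p = 0.0375, lost under 9 of 16 alternatives). Without this list, 5 of the other 103 measured chaperone genes were higher and 6 lower (10.7%), with a median of -0.04.

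**Figure D5:**
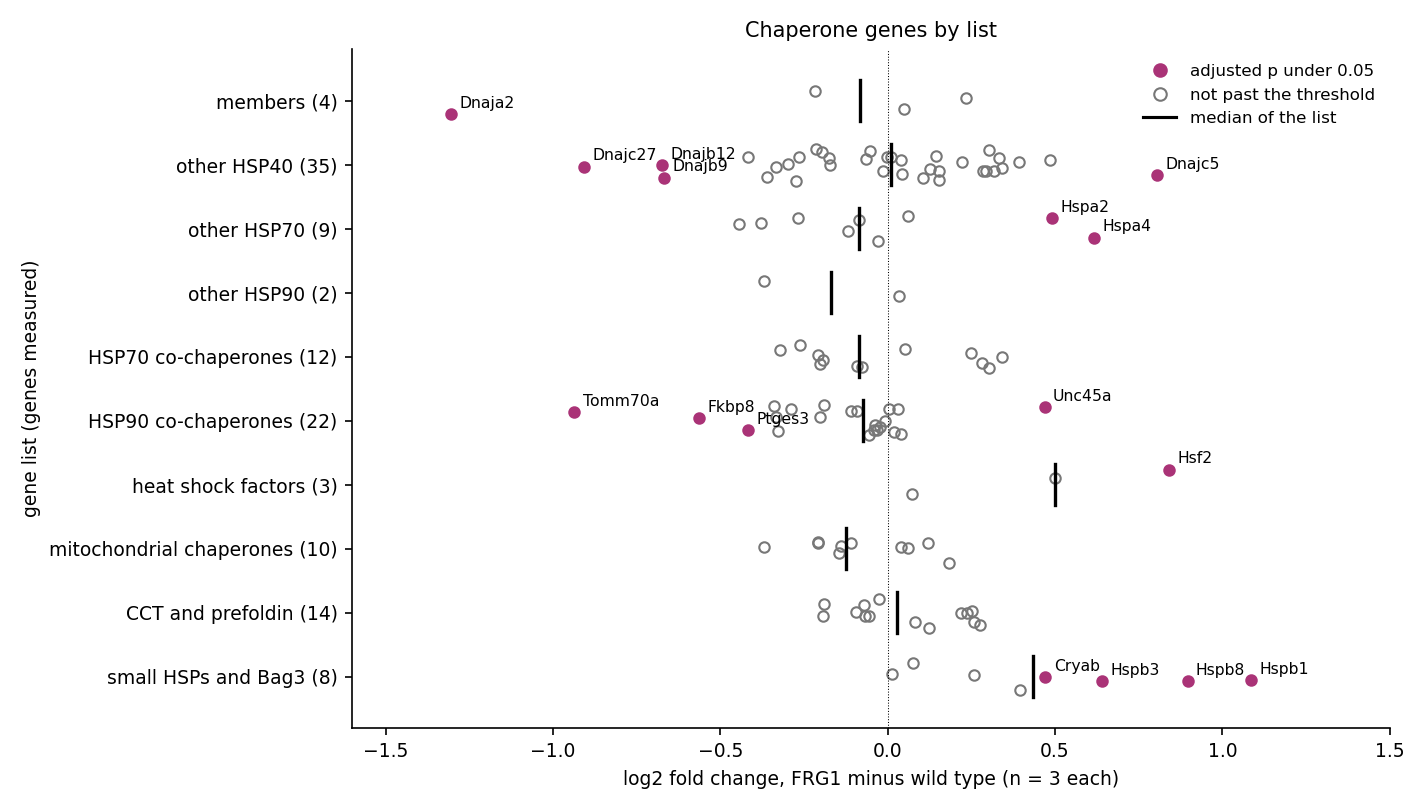
Log2 fold change (FRG1 minus wild type, n = 3 each) of each measured gene, by list, with the number measured in parentheses, filled points past the threshold and a black bar at the median. Dnaja2 lies furthest to the left, and the list of small heat shock proteins has 4 filled points, all to the right of 0.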

How the data were processed

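The members and gene lists were chosen with earlier results of these data known. The authors deposited, per the file headers, intensity values that were not normalized and their detection p-values, for 46632 probes and 6 arrays, and a table of processed intensity made with lumi, per the submitters' processing notes. The processed columns have medians of 5.07 to 5.15 and 33.7% to 33.9% of values below 0, and what was subtracted is unknown. That table served as an alternative only. For lumi, neither version nor settings are given in these sources.

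The neqc function (limma 3.58.1, R 4.3.3, offset 16) corrected the background, quantile normalized the arrays and gave log2 values. Probes with a detection p under 0.05 on at least 3 arrays were retained and fitted with lmFit and eBayes, with group as the only term. Two-sided p-values were Benjamini-Hochberg adjusted over the 19563 retained probes at a threshold of 0.05. Log2 fold changes are FRG1 minus wild type. The offset understates those of dim probes, and precision is limited by having 6 arrays. Of all probes, 29976 had 1 symbol in the platform's annotation, 10 several and 16646 none. Symbols were updated through Entrez to the RefSeq table of GRCm38.p6 (29921 probes). The brightest retained probe represents a gene. Named are all members, up to 4 genes of each chaperone list by smallest p, Dnajb6, whose probes disagreed, and the 3 genes nearest in pattern to a called member. Marker genes are named for the skeletal muscle and immediate early lists only, as the genes called there. The fit was tested on simulated data.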

Additional observations from a re-analysis of the deposited data

How the results depend on the processing

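Dnaja2 remained past the threshold under all 15 alternatives run, with a log2 fold change of -1.36 to -1.18 and an adjusted p of 1.25e-05 to 0.0014 (limma). The other 4 retained probes passed under none of them. With 1 sample left out, the log2 fold change ranged from -0.0365 to 0.10 for Dnajb1 and from -0.16 to 0.19 for Hspd1 ILMN_2639036, changing sign without wild type Sample906, and without wild type Sample872 or FRG1 Sample874, respectively. The 2702 retained probes called (1389 higher, 1313 lower, 51.4% higher) became 1334 to 2669 with 1 sample left out (753 to 1437 higher and 564 to 1232 lower). With median scaling, which moved the median of all probes by 0.13 log2 units, 507 probes were lower and 79.1% of the calls were higher. Related chaperone genes, 9 higher and 6 lower, became 2 to 8 higher and 2 to 6 lower with 1 sample left out. With median scaling 11 were higher and 2 lower. Of the 15 calls in the reported fit, 3 (Tomm70a, Hspb1 and Hspb8) were kept under all 16 alternatives, 10 were lost without FRG1 Sample871 and 10 without FRG1 Sample873. The cause was not tested. The difference between Dnaja2 and Dnajb1 ranged from -1.41 to -1.25. No paired analysis was run, because the labels give no pairing of the samples. Where a probe was below background, its level cannot be read.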
